A study of Mus musculus with 6 samples.

Results

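Hox genes encode transcription factors with a homeodomain, the part that binds DNA, and they lie in 4 clusters named Hoxa, Hoxb, Hoxc and Hoxd. Genes with the same number in different clusters are paralogues, and the number follows their order along the chromosome. During development low-numbered genes are switched on further forward in the body and high-numbered genes further back, and adult fibroblasts keep a Hox profile that reflects where in the body they came from. The distal colon derives from the hindgut, whose mesenchyme and epithelium use the high-numbered genes, while Cdx factors act on Hox genes in the gut epithelium.

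The Hox genes were taken as every protein-coding gene of the deposited table whose symbol is Hoxa, Hoxb, Hoxc or Hoxd followed by a number, which gave 39 of 49548 genes: 11 Hoxa, 10 Hoxb, 9 Hoxc and 9 Hoxd. The libraries came from colonic adenomas of C57/BL6 mice that carried Col6a1-cre and the Rosa26-mTmG reporter and had received AOM/DSS, a carcinogen followed by cycles of a colitis-inducing agent. Cells with CD45, EpCAM, CD31 or Ter119 were excluded, and GFP+ cells, in which Cre had been active (Col6a1+ CAFs), were sorted apart from Tomato+ cells, in which it had not (Col6a1− CAFs), with 3 libraries a group, each from pooled tumors of several mice. All animals carried the same alleles and received the same treatment, and the groups differ in the population sorted. Col6a1Cre marks mainly PDGFRa-high fibroblasts and perivascular cells, and the Tomato+ sort holds trophocytes and most PDGFRa-low fibroblasts together, which limits each group as a model of a single cell type.

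The libraries summed to between 3039152 and 3425249 normalized counts, and between 14530 and 20511 genes had a count, with Col6a1+ replicate 1 the lowest. The Hox genes together summed to 1201 to 1708 normalized counts in Col6a1+ CAFs and 1781 to 2792 in Col6a1− CAFs. They were thus a small part of each library, and many Hox levels below rest on low normalized counts. All samples are labelled fibroblasts, and 6 pan-fibroblast markers summed to 37468 to 41177 in Col6a1+ and 6799 to 13785 in Col6a1− CAFs. Against the EpCAM exclusion, 15 epithelial markers, none of them at 0 in all libraries, summed to 6581 to 9042 in Col6a1+ and 28309 to 47485 in Col6a1− CAFs, above the fibroblast markers of that group in every library. The 8 mural markers summed to 41577 to 90981 in Col6a1+ and 1147 to 2141 in Col6a1− CAFs. In sorted bulk samples fewer cells of a type and less RNA per cell cannot be told apart.

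A count was seen for 33 genes, and for 6, which are Hoxc5, Hoxc11, Hoxc12, Hoxc13, Hoxd1 and Hoxd3, all libraries were at 0. A further 15 genes had a mean under 10 normalized counts. The remaining 18 genes are 7 Hoxa, 5 Hoxb, 1 Hoxc and 5 Hoxd genes.

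**Figure D1:**
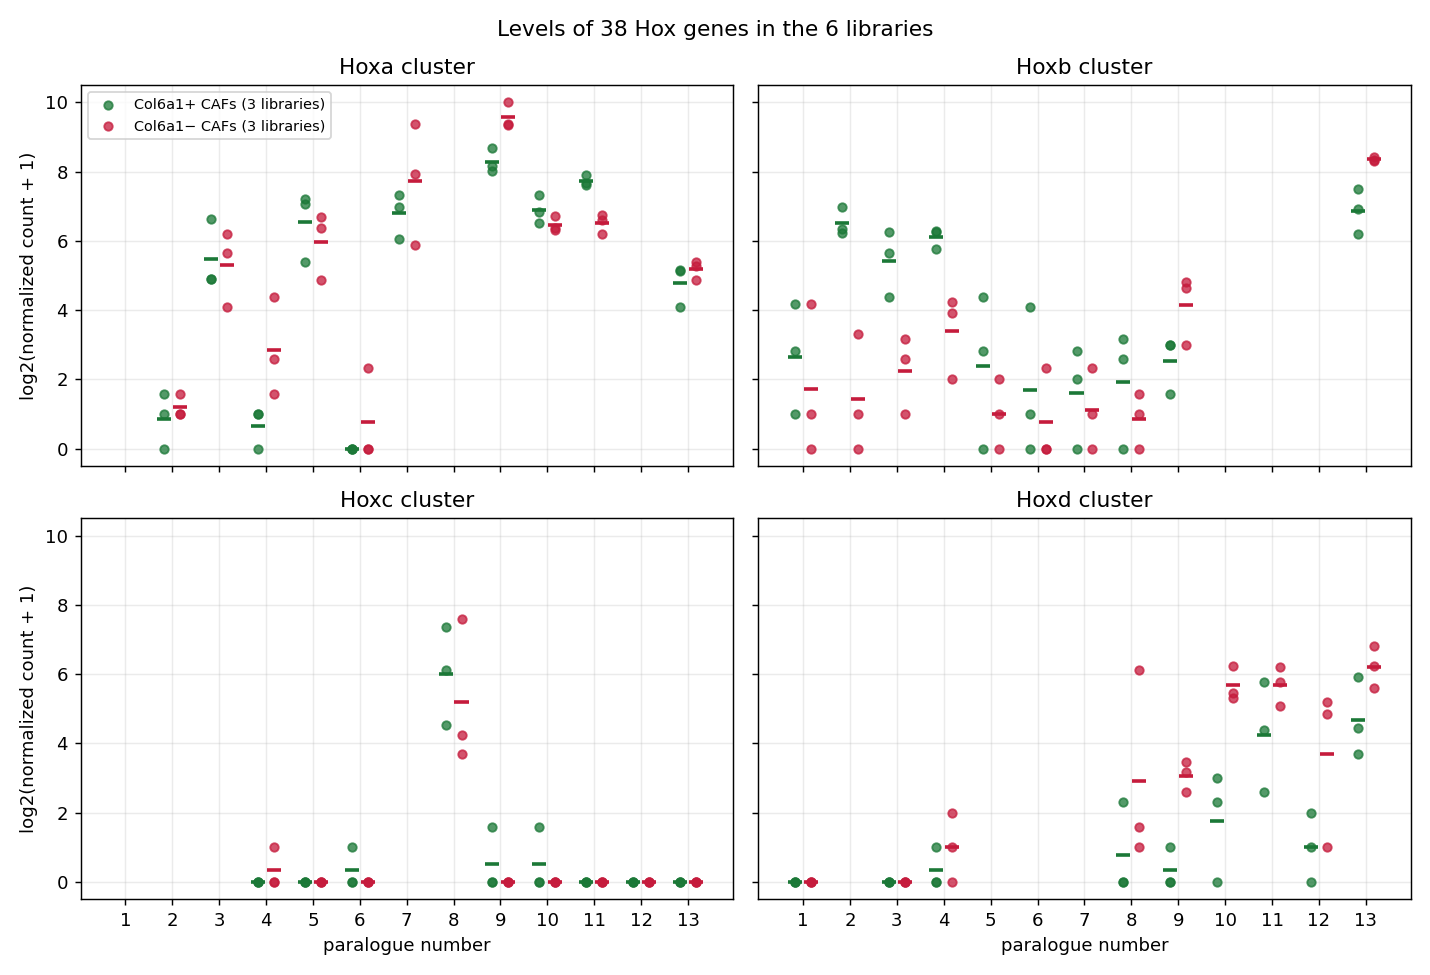
Levels of 38 Hox genes as log2(normalized count + 1) against paralogue number, a panel per cluster. Points are libraries (green, 3 Col6a1+ CAF; red, 3 Col6a1− CAF) and short lines are group means of the log2 values. Hoxb2, Hoxb3 and Hoxb4 stand higher in the green libraries, Hoxa9, Hoxb13 and Hoxd10 in the red ones, and of the Hoxc genes Hoxc8 alone exceeds 2 normalized counts in any library.

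The Hoxa cluster supplied most Hox counts in every library, from 57.6% to 73.3% of the Hox sum. Hoxb supplied 14.8% to 27.2% and Hoxc 0.674% to 9.66%, nearly all of it from Hoxc8. The Hoxd share was 1.92% to 5.5% in Col6a1+ CAFs and 4.94% to 20% in Col6a1− CAFs, so the groups overlapped in share. As sums, however, the Hoxd genes reached 75, 23 and 94 normalized counts in the Col6a1+ libraries and 356, 138 and 221 in the Col6a1− libraries, and these ranges did not overlap.

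By paralogue number, genes 1 to 3, the anterior group, summed to 241, 143 and 250 normalized counts in Col6a1+ and 80, 45 and 64 in Col6a1− CAFs. Genes 9 to 13, the posterior group, summed to 1017, 746 and 861 in Col6a1+ and 1502, 1777 and 1385 in Col6a1− CAFs. The groups separated in opposite directions: the anterior sum was higher and the posterior sum lower in each Col6a1+ library. As shares of the Hox sum, the anterior genes still separated, at 11.9% to 15.5% in Col6a1+ and 1.61% to 4.49% in Col6a1− CAFs. The posterior share overlapped, at 50.4% to 65.4% and 63.6% to 84.3%. Genes 4 to 8 summed to 297, 312 and 597 against 199, 970 and 393, with overlap, and the sign of their log2 ratio of mean sums, −0.37, rested on Col6a1− replicate 2, without which it was 0.44. No test was made of these sums, which a few genes carry.

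**Figure D2:**
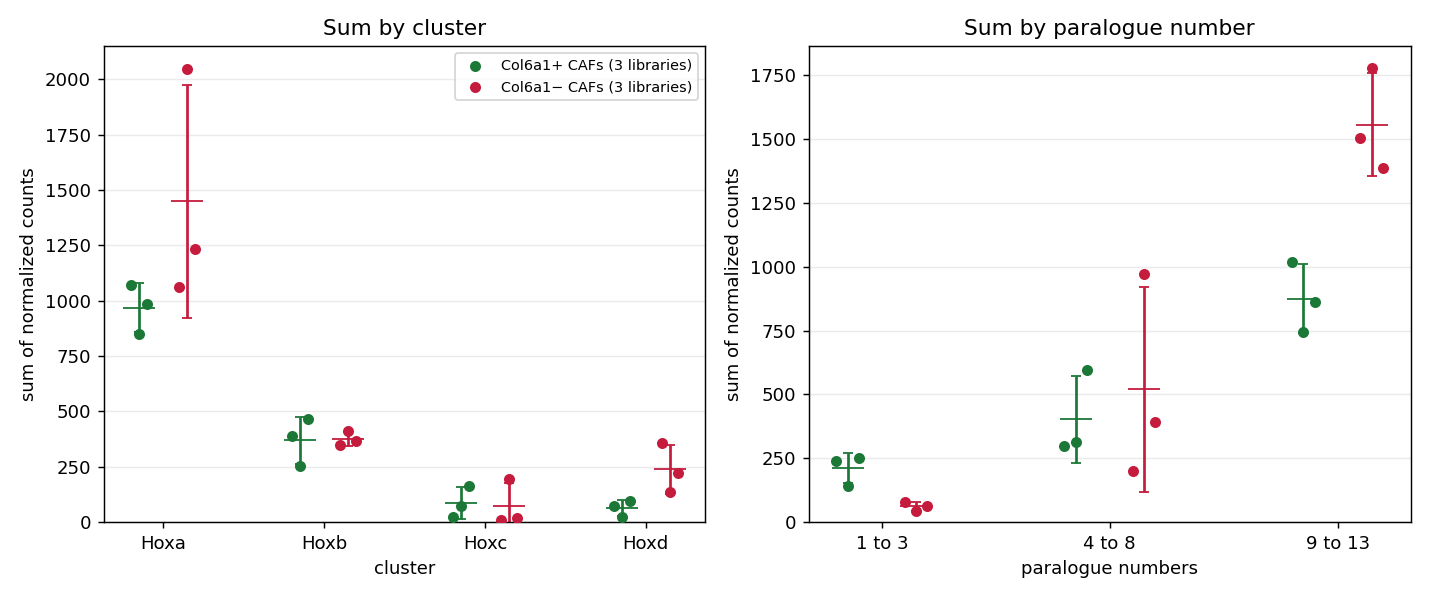
Sum of normalized counts over the Hox genes of each cluster (left) and over paralogue numbers 1 to 3, 4 to 8 and 9 to 13 (right). Points are libraries, horizontal lines are means of 3 libraries and bars are SDs, not drawn below 0. The sums of genes 1 to 3 were 211 ± 59.3 in Col6a1+ and 63 ± 17.5 in Col6a1− CAFs (SD, n = 3), and those of genes 9 to 13 were 875 ± 136 and 1555 ± 201.

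For levels between genes, the normalized count was divided by the length of the region in which reads were counted. In Col6a1+ CAFs Hoxa11 had the highest mean, 84.8 ± 8.59 normalized counts per kb (SD, n = 3). Hoxa9 at 64 ± 16.2, Hoxb2 at 56.8 ± 17, Hoxa5 at 51.1 ± 27.4, Hoxb13 at 50.3 ± 21.9 and Hoxa10 at 47.5 ± 14 per kb followed, and these neighbors lay within each other's spread. In Col6a1− CAFs Hoxa9 led at 157 ± 43.2 per kb, with Hoxb13 at 132 ± 5.26 within its spread. Hoxa7 came next at 62.1 ± 60.2 per kb, a spread that covers Hoxa11 at 36.5 ± 6.75, Hoxa10 at 34.6 ± 5.55 and Hoxa5 at 34 ± 18.4 per kb. Per kb, the order of the leading genes thus differed between the groups, with Hoxb2 among the leading genes of Col6a1+ CAFs and at 2.04 per kb in Col6a1− CAFs. In 3′ libraries a transcript gives reads near its end whatever its length, so long regions lower these values. Hoxa9 was counted over 4976 bases and Hoxa11 over 2508. By normalized count Hoxa9 led in both groups, with means of 319 in Col6a1+ and 780 in Col6a1− CAFs. In Col6a1+ CAFs Hoxa11 followed at 213, and Hoxb2 was at 93.

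Of the 33 genes tested with limma, 1 was called higher in Col6a1+ CAFs (Hoxb2) and 2 lower (Hoxa9 and Hoxd10) at an adjusted p under 0.05. Over all 26402 genes tested, 2.66% were called higher and 1.96% lower, so the higher share of the Hox genes, 3.03%, was near the background, and the lower share was 6.06%. With the replicate block, the fit that pairs libraries of the same number, no gene of the table was called (smallest adjusted p 0.0612), so every call here is lost with it. At an unadjusted p under 0.05 in that limma fit were 4418 of the 26402 genes and 9 of the 33 Hox genes, 4 higher and 5 lower. With that block and a minimum mean of 10 normalized counts, 4 Hox genes were called higher (Hoxa11, Hoxb2, Hoxb3 and Hoxb4) and 3 lower (Hoxa9, Hoxb13 and Hoxd10), with 7.26% and 6.44% of the 13515 genes called in that fit. Those 7 genes are also the ones, among the 18 with a mean of at least 10, whose libraries did not overlap between the groups: 4 higher, or 22.2%, and 3 lower, or 16.7%. Over the 13515 genes of that level the shares without overlap were 14.2% and 17.6%, so the lower share was near the background.

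**Figure D3:**
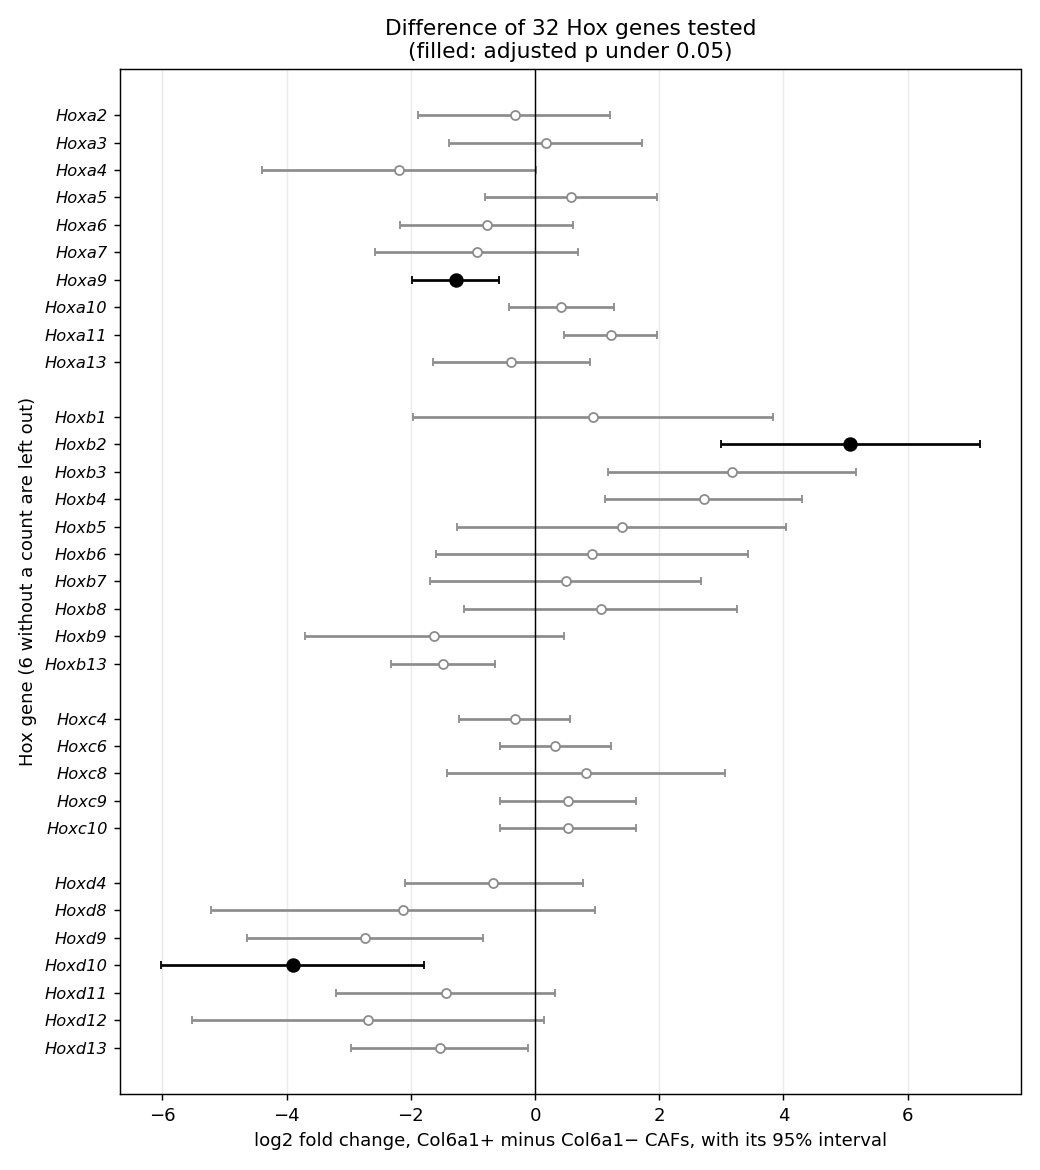
Log2 fold change of 32 of the Hox genes tested, Col6a1+ minus Col6a1− CAFs on the log2(normalized count + 1) scale, grouped by cluster, with the 95% interval from limma. Filled points have an adjusted p under 0.05. Hoxb2 at 5.07 lies furthest to the right and Hoxd10 at −3.90 furthest to the left, and all 7 Hoxd genes lie left of 0.

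The promoters of the genes that separated the groups are given where the reference table of RefSeq starts (GRCm38.p6) holds them, as the 250 bases before the start on the gene's strand, so that the neighborhood of a gene higher in Col6a1+ CAFs can be set beside that of a gene lower in them. Hoxb4 and Hoxa11 were higher, Hoxa9 and Hoxd10 lower. Capitals mark matches, on either strand, to 5 motifs: CCAAT, the NF-Y box; CACGTG, an E-box; TGATTNAT, a core bound by Hox and Pbx proteins together; TAATTA, a homeodomain core; and TTTATNG, a core of the Cdx site.
Hoxb4, chr11:96318017-96318266, plus strand: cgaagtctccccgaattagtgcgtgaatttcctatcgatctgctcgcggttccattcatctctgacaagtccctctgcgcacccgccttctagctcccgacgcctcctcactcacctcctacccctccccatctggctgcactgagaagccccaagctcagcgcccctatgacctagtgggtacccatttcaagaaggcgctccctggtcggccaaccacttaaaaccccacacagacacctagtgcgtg
Hoxa11, chr6:52245811-52246060, minus strand: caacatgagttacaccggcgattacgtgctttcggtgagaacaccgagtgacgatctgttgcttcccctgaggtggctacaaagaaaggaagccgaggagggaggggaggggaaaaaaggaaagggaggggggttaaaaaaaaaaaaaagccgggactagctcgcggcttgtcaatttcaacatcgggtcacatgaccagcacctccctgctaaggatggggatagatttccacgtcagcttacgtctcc
Hoxa9, chr6:52227371-52227620, minus strand: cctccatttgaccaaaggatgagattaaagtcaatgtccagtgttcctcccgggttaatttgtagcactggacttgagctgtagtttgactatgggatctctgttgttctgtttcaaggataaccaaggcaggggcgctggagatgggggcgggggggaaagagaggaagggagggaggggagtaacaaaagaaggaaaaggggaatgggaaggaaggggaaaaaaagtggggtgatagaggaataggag
Hoxd10, chr2:74691641-74691890, plus strand: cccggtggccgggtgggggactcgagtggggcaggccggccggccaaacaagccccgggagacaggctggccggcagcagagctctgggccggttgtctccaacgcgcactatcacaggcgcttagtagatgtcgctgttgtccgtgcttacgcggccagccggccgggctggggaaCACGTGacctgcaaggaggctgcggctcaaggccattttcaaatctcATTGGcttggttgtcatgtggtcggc

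The Hoxd10 window held an E-box at bases 178 to 183 and an NF-Y box, on the opposite strand, at bases 225 to 229, counted from 1 at the 5′ end. No match to these letters was found in the windows of Hoxb4, Hoxa11 and Hoxa9. In 32851 promoters of the same length, 33.8% held the NF-Y box, 6.02% the E-box, 2.82% the Hox and Pbx core, 4.84% the homeodomain core and 9.81% the Cdx core. Of 24 promoters of the 22 Hox genes in the table, 14 held the NF-Y box, 4 the E-box and 2 each of the other 3. The Hoxa9 window lies inside the span of the longer Hoxa9 gene model, the Hoxa11 window inside the antisense transcript Hoxa11os, where it also meets Gm28032, and the Hoxd10 window inside the transcript Gm28309.

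Of the anterior and central Hoxb genes, Hoxb2, Hoxb3 and Hoxb4 had libraries that did not overlap, higher in Col6a1+ CAFs, and Hoxb2 alone was called. Hoxb2, which patterns the hindbrain, had 74, 80 and 125 normalized counts in Col6a1+ and 0, 9 and 1 in Col6a1− CAFs. It was near absent from the Tomato+ sort, and no Col6a1− library reached a Col6a1+ one. The means were 93 ± 27.9 and 3.33 ± 4.93 (SD, n = 3), with a log2 fold change of 5.07 ± 0.94 (SE) and an adjusted p of 0.0134 from limma. The adjusted p was 0.0916 with the replicate block and 0.0107 with the block and a mean of at least 10. Left-out libraries gave a log2 fold change of 4.35 to 6.02; the call held without Col6a1− replicate 2 (adjusted p 0.0331 by limma) and was lost without any other, up to 0.132. Over all alternatives the adjusted p ran from 0.00361 to 0.132.

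Hoxb3, its neighbor 2.59 kb away, had 49, 20 and 75 normalized counts in Col6a1+ and 5, 1 and 8 in Col6a1− CAFs. Hoxb4, known from blood stem cells, had 77, 53 and 76 against 3, 14 and 18. In both genes the lowest Col6a1+ library was above the highest Col6a1− library. Neither passed the threshold: Hoxb3 had a log2 fold change of 3.18 ± 0.90 (adjusted p 0.0801, limma) and Hoxb4 of 2.72 ± 0.72 (adjusted p 0.061, limma). With the block and a mean of at least 10, the adjusted p values were 0.0323 and 0.0419. Over all alternatives they ran from 0.0323 to 0.306 for Hoxb3 and from 0.0419 to 0.231 for Hoxb4.

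The remaining central Hoxb genes were low. Hoxb5 to Hoxb8 lay between 0 and 20 normalized counts in every library, and Hoxb1 between 0 and 17. Their groups overlapped, their log2 fold changes lay between 0.50 and 1.40 and none was called. Counting these, 8 of 8 Hoxb genes numbered 1 to 8 had a positive log2 fold change and both genes numbered above them a negative one, whereas 41.2% of all genes tested were positive. The signs of Hoxb6 and Hoxb7 were not stable, with −0.27 to 1.77 and −0.11 to 1.30 over left-out libraries.

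Their counterparts in the other clusters did not share the difference. Hoxa2 had at most 2 normalized counts in any library, so nearly all counts of genes with that number came from Hoxb2. Hoxa3 had 99, 29 and 29 normalized counts in Col6a1+ and 73, 16 and 49 in Col6a1− CAFs. Its groups overlapped, and its log2 fold change of 0.17 had a 95% interval of −1.39 to 1.73. Hoxa4 went the other way from Hoxb4, with 0, 1 and 1 normalized counts in Col6a1+ and 20, 2 and 5 in Col6a1− CAFs. That is 27 counts against 2 over the groups, a ratio of 13.5 with a counting interval of 3.39 to 117, and an adjusted p of 0.315 (limma).

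Members of the posterior group moved in different directions within the Hoxa cluster. Hoxa9, known for its part in blood progenitors and leukemia, was the most abundant Hox gene, with 411, 284 and 261 normalized counts in Col6a1+ and 663, 1028 and 648 in Col6a1− CAFs. Every Col6a1− library was above every Col6a1+ one. The means were 319 ± 80.8 and 780 ± 215 (SD, n = 3), a 2.45-fold higher level in Col6a1− CAFs, and limma gave a log2 fold change of −1.28 ± 0.32 (SE) with an adjusted p of 0.0464 (limma). With the block the adjusted p was 0.133, with the block and a mean of at least 10 it was 0.0243, and without any single library of the 6 the call was lost, at 0.0515 to 0.191. The lowest value over all alternatives was 0.0233.

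Hoxa11, needed in limb, kidney and uterus, had 196, 237 and 205 normalized counts in Col6a1+ and 96, 106 and 73 in Col6a1− CAFs, the opposite order from Hoxa9, which lies beyond Hoxa10 in the same cluster. Replicates of each group were close and the groups were apart. The means were 213 ± 21.5 and 91.7 ± 16.9, with a log2 fold change of 1.22 ± 0.34 and an adjusted p of 0.0729 (limma), or 0.0382 with the block and a mean of at least 10, the lowest of alternatives that reached 0.2. Hoxa10 itself had 113, 91 and 161 against 82, 105 and 79, with overlap and a log2 fold change of 0.42 ± 0.38. Hoxa13, used in digit and hindgut formation, had 35, 34 and 16 against 41, 38 and 28 and a 95% interval of −1.65 to 0.89.

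Hoxb13, a posterior gene known from prostate and distal gut, lies 74 kb from the next Hoxb gene, Hoxb9. It had 180, 72 and 121 normalized counts in Col6a1+ and 326, 340 and 314 in Col6a1− CAFs, where it varied little. The means were 124 ± 54.1 and 327 ± 13, with a log2 fold change of −1.48 ± 0.38 and an adjusted p of 0.0533 (limma), or 0.0268 with the block and a mean of at least 10, within a range of 0.0268 to 0.214 over all alternatives. Hoxb9 had 7, 2 and 7 against 7, 27 and 24 and was not called (adjusted p 0.449, limma).

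All 7 Hoxd genes with a count had a negative log2 fold change, where 58.8% of all genes tested did, and their median was −2.13 against −0.27 over all genes. Hoxd10, which acts in limb and spinal motor neurons, had 0, 4 and 7 normalized counts in Col6a1+ and 75, 43 and 39 in Col6a1− CAFs. It was close to 0 in the GFP+ sort and clearly present in the Tomato+ sort. The means were 3.67 ± 3.51 and 52.3 ± 19.7 (SD, n = 3), with a log2 fold change of −3.90 ± 0.96 and an adjusted p of 0.0462 (limma). With the block the adjusted p was 0.159 and with the block and a mean of at least 10 it was 0.0392. Without Col6a1+ replicate 1 it was 0.0415, and without any other library the call was lost, at 0.0826 to 0.206. Over all alternatives it ran from 0.0184 to 0.206.

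Hoxd13, a digit and hindgut gene, had the most counts of the Hoxd genes, with 21, 12 and 59 normalized counts in Col6a1+ and 112, 48 and 74 in Col6a1− CAFs. Hoxd11, a limb and kidney gene, had 54, 5 and 20 against 54, 33 and 73. Both overlapped between the groups and neither was called (adjusted p 0.265 and 0.434, limma). Hoxd9 had 0, 0 and 1 normalized counts in Col6a1+ and 10, 8 and 5 in Col6a1− CAFs, which is 23 counts against 1 over the groups, a ratio of 23 with a counting interval of 3.73 to 947. Its libraries did not overlap, at a mean of 4, and its adjusted p was 0.113 (limma). Hoxd12, with 0, 1 and 3 against 36, 1 and 28, and Hoxd8, with 0, 0 and 4 against 69, 2 and 1, varied among the Col6a1− libraries, and Hoxd8 was high in replicate 1 alone. Hoxd4 had at most 3 normalized counts.

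Genes of the same number thus differed within a library. The log2 ratio of Hoxa11 to Hoxd11 was 1.84, 5.31 and 3.29 in Col6a1+ and 0.82, 1.65 and 0.00 in Col6a1− CAFs. That of Hoxa10 to Hoxd10 was 6.83, 4.20 and 4.34 against 0.13, 1.27 and 1.00. In each pair the Hoxd gene came nearest to its Hoxa paralogue in the Col6a1− libraries, and these ratios, computed with 1 added to each count, are given as a description.

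Hoxa5, Hoxa7 and Hoxc8, all central genes with means of at least 80, varied as much within a group as between groups. Hoxa5, which patterns lung and other mesenchyme, had 132, 41 and 146 normalized counts in Col6a1+ and 28, 82 and 102 in Col6a1− CAFs. Hoxa7 had 66, 125 and 161 against 58, 667 and 242, and Hoxc8, a thoracic patterning gene, 22, 69 and 165 against 12, 194 and 18. Col6a1− replicate 2 was the highest of all libraries for both of the latter. The 95% intervals of their log2 fold changes were −0.81 to 1.96, −2.57 to 0.70 and −1.41 to 3.06. In the rest of the Hoxc cluster no gene passed 2 normalized counts: Hoxc9 and Hoxc10 had 2 each in Col6a1+ replicate 2, Hoxc6 had 1 there and Hoxc4 had 1 in Col6a1− replicate 2. Hoxa6 had 4 in Col6a1− replicate 3 and 0 elsewhere.

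Markers of other cell types also differed between the groups. Of the 15 epithelial markers, 10 were called lower in Col6a1+ CAFs, as Hoxa9 and Hoxd10 were. All 8 mural and 5 of 6 smooth muscle markers were called higher, as Hoxb2 was. With only these groups compared, a shared direction does not link a marker to a Hox gene. The largest values were 2999 normalized counts in Col6a1+ and 17117 in Col6a1− CAFs for an epithelial marker, and 42173 and 1280 for a mural marker. Smooth muscle markers summed to 12262 to 24902 in Col6a1+ and 467 to 2233 in Col6a1− CAFs, immune markers to 50 to 81 and 414 to 836. Of the immune markers, S100a8 and S100a9 were called lower in Col6a1+ CAFs, and 4 of the 6 pan-fibroblast markers were called higher. The part of these cells in the Hox differences was not tested. Endothelial sums (148 to 284 and 203 to 486), glial sums (57 to 93 and 49 to 107), enteric neuron sums (66 to 103 and 90 to 170), erythroid sums (110 to 1713 and 281 to 482) and mesothelial sums (1 to 4 and 5 to 33) held no called gene, and 3 of these genes, among them Lrrn4, were at 0 in all libraries.

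Reads of overlapping genes limit some values, since it is not stated whether strand was used in counting. Hoxb2 and Hoxb3 overlap the antisense gene Hoxb3os, which had 92, 26 and 31 normalized counts in Col6a1+ and 5, 7 and 0 in Col6a1− CAFs, the same direction as both. Hoxa11 overlaps Hoxa11os on the other strand, with 219, 422 and 298 against 273, 296 and 325, which did not follow it. Hoxd10 and Hoxd11 overlap Gm28309 on the same strand, with 0, 3 and 1 against 22, 10 and 20. Hoxa4, Hoxa5 and Hoxa6 lie inside the span of Hoxa3, and Hoxc6, Hoxc8, Hoxc9 and Hoxc10 overlap that of Hoxc5, which was at 0.

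Hox proteins bind DNA with TALE cofactors, namely Pbx, Meis and Pknox proteins. Of 9 TALE genes tested none was called by limma, and their median log2 fold change was 0.46. Meis1, Meis3 and Pknox2 were higher in Col6a1+ CAFs without overlap between the groups, at adjusted p values of 0.181, 0.224 and 0.2 (limma). Pbx4 was lower without overlap, at 0 in all Col6a1+ libraries and 1, 5 and 10 normalized counts in Col6a1− CAFs. Pbx2 had 257, 165 and 194 normalized counts in Col6a1+ and 133, 165 and 262 in Col6a1− CAFs. Its groups overlapped, with an adjusted p of 0.805 (limma).

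Polycomb proteins keep Hox genes silent and MLL and trithorax proteins keep them active. None of 19 Polycomb and none of 11 MLL and trithorax genes was called, with median log2 fold changes of 0.10 and −0.02. Of the Polycomb genes, Ezh2, Eed and Cbx2 were lower in Col6a1+ CAFs without overlap between the groups, and Rnf2 and Phc1 were higher. Over all genes with a mean of at least 10, 17.6% were lower and 14.2% higher without overlap. Ezh2 had 0, 26 and 11 normalized counts in Col6a1+ and 74, 39 and 218 in Col6a1− CAFs (adjusted p 0.113, limma). Cbx6, a Polycomb reader of methylated histone H3, had 903, 1868 and 1635 normalized counts in Col6a1+ and 463, 827 and 1016 in Col6a1− CAFs. It overlapped by 1 pair of libraries at an adjusted p of 0.239 (limma), and was the only gene of these lists called with the block and a mean of at least 10 (0.0323, in a range of 0.0323 to 0.515 over all alternatives). Rbbp4, a histone-binding subunit, had 1133, 706 and 855 against 878, 616 and 811. Among the MLL and trithorax genes, Ash2l, a subunit of the methyltransferase complexes, had 247, 171 and 145 against 353, 279 and 275, and Dot1l, an H3 methyltransferase, 152, 225 and 269 against 114, 161 and 250, with adjusted p values of 0.318 and 0.642.

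Of 6 ParaHox and Evx genes tested, 2 were called lower in Col6a1+ CAFs and none higher. Evx1, a homeobox gene 52.6 kb beyond Hoxa13, had 0, 26 and 13 normalized counts in Col6a1+ and 564, 298 and 473 in Col6a1− CAFs. The sum of the posterior Hox genes had the same direction, while Hoxa11 was higher in Col6a1+ CAFs. The log2 fold change of Evx1 was −5.90 ± 1.00 (SE). Its adjusted p was 0.00929 by limma, 0.113 with the block and 0.00734 with the block and a mean of at least 10. Cdx1, a regulator of the intestinal epithelium, had 55, 58 and 49 against 303, 407 and 203, with a log2 fold change of −2.42 ± 0.37 and adjusted p values of 0.00582, 0.0612 and 0.00396 in those fits. Over all alternatives the adjusted p ran from 0.00359 to 0.153 for Evx1 and from 0.00313 to 0.0926 for Cdx1. Leaving out a library ended the call of Evx1 without Col6a1+ replicate 3 or any Col6a1− library (0.0566 to 0.153) and that of Cdx1 without Col6a1− replicate 1 (0.0926) or 2 (0.0667). Cdx2 had 32, 12 and 4 against 15, 31 and 20, with overlap, and Evx2, 8.75 kb from Hoxd13, had 0 in all Col6a1+ libraries and 3, 10 and 0 in Col6a1− CAFs.

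Of 12 other homeobox genes of mesenchyme tested, 3 were called higher and none lower. Prrx1, a limb and fibroblast factor, had 182, 106 and 148 normalized counts in Col6a1+ and 4, 3 and 0 in Col6a1− CAFs, which differ by 5.72 ± 0.80 on the log2 scale. Nkx2-3, a factor of gut mesenchyme, had 1340, 1043 and 715 against 319, 235 and 121, with 2.26 ± 0.40. Meox2, which acts in muscle and vessel walls, had 27, 17 and 19 against 0, 0 and 1, with 4.10 ± 0.93. In each the groups were apart, and the adjusted p values were 0.00341, 0.0109 and 0.0332 by limma, 0.0629, 0.0612 and 0.102 with the block, and 0.0039, 0.00205 and 0.0624 with the block and a mean of at least 10. Over the left-out libraries, Prrx1 lost its call without Col6a1+ replicate 3 (0.0504) or Col6a1− replicate 1 (0.0677), Nkx2-3 kept it only without Col6a1+ replicate 3 (0.0472) and Meox2 only without Col6a1+ replicate 1 (0.0439). Over all alternatives the adjusted p ran from 0.00144 to 0.0677 for Prrx1, 0.00205 to 0.103 for Nkx2-3 and 0.0017 to 0.13 for Meox2. Pitx1, a hindlimb factor and among the most abundant of this list, had 148, 106 and 156 normalized counts against 100, 93 and 16 and was not called (adjusted p 0.351, limma).

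**Figure D4:**
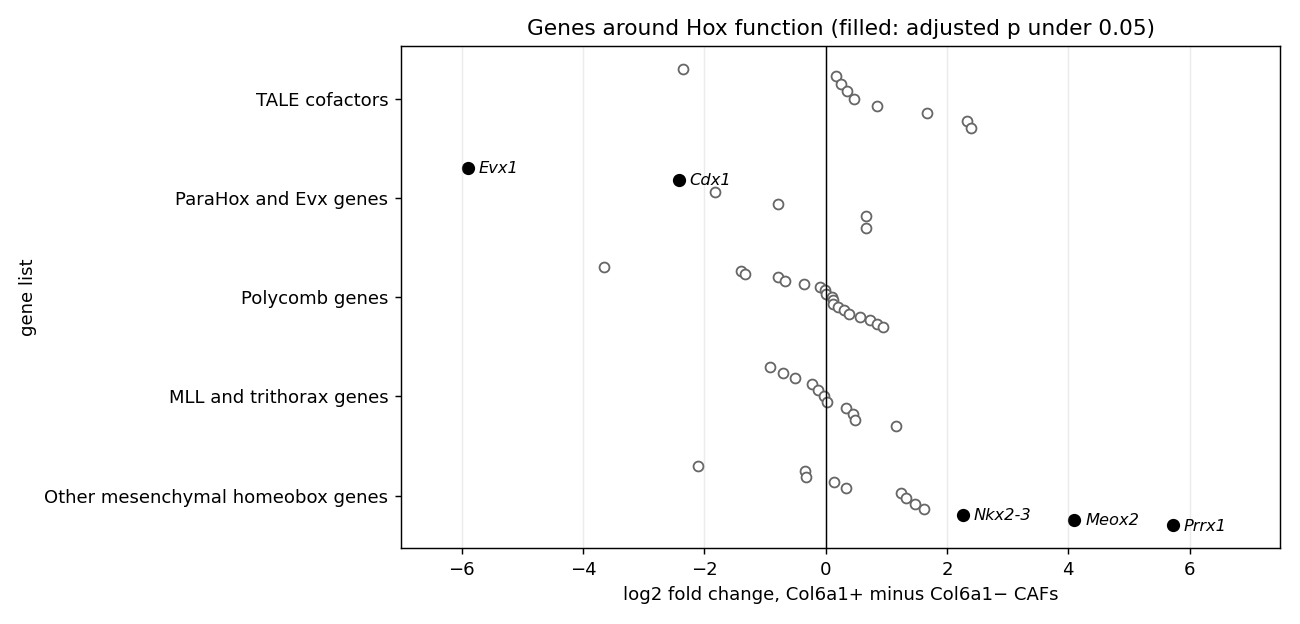
Log2 fold change, Col6a1+ minus Col6a1− CAFs on the log2(normalized count + 1) scale, of the genes tested in 5 lists around Hox function. A point is a gene, and filled, named points have an adjusted p under 0.05 in limma without the replicate block, under which no gene is called. Evx1 (−5.90) and Cdx1 (−2.42) lie to the left and Prrx1 (5.72), Meox2 (4.10) and Nkx2-3 (2.26) to the right, while no TALE, Polycomb, MLL or trithorax gene is filled.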

How the data were processed

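RNA of sorted cells was sequenced by the authors as QuantSeq 3′ libraries on an Ion Proton. The authors mapped reads with TopHat2 and then Bowtie2 to mm10, counted them per gene with GenomicRanges and normalized with DESeq size factors through metaseqR. The deposited table holds, per gene and library, the log2 of the normalized count plus 1; turned back, 100% of values are whole within 1e-06. It also holds a deposited signal, the normalized count per base of the counting region, from which region lengths were taken (1331 to 5894 bases for Hox genes). Read depth before normalization is not known, so counting intervals rest on normalized counts, cover counting error only and are 95% exact intervals. The table's own fold changes, p-values and false discovery rates were not used.

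Groups and replicate numbers came from the labels. All 26402 genes with at least 1 normalized count in total were fitted with limma 3.58.1 (R 4.3.3; eBayes with trend) on the log2 values, a pseudocount of 1, over all 6 libraries, with Benjamini-Hochberg adjustment; a gene is called at an adjusted p under 0.05. This stands in for the authors' DESeq test, as the values are normalized. Fold changes on this scale understate low genes. The script was tested on simulated data. Each sample is a pool of tumors from several mice. The study describes 3 samples, but does not state that same-numbered GFP+ and Tomato+ libraries came from the same pool, and p-values measure the spread between these libraries. The replicate numbers were taken to pair the libraries, though no label states the pairing. Over 13515 genes, deviations from the group means of same-numbered libraries correlated at 0.245, 0.125 and 0.144, each over 0.1. Libraries of different numbers correlated at −0.245 to 0.15. Col6a1+ replicate 2 correlated more with Col6a1− replicate 3 (0.15) than with Col6a1− replicate 2 (0.125), so these values do not settle the pairing.

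The Hox genes, the gene lists and the rule for naming were chosen with earlier results of these data known. Named with all values were Hox genes with an adjusted p under 0.05, those whose libraries did not overlap at a mean of at least 10, the 2 most abundant of each cluster, and from each list the called and the 2 most abundant genes; others were named after their values were seen. Promoters came from RefSeq starts (GRCm38.p6), found for 22 of 39 genes; protein sequences were not used here. Values of 1 Hox gene and of some list genes are not reported here, though sums and counts include them. Alternatives were library size scaling, filters at a mean of 10 and at 10 in every library, limma-voom, the replicate block with and without a mean of 10, a pseudocount of 0.1, leaving out each library and calls at an unadjusted p under 0.05 with a log2 fold change over 1.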

Additional observations from a re-analysis of the deposited data

How the results depend on the processing

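The Hox genes called higher and lower, 1 and 2 in the reported fit, were 3 and 3 with a mean of at least 10, 2 and 4 with limma-voom, 0 and 0 with the replicate block, 4 and 3 with the block and a mean of at least 10, 0 and 0 with a pseudocount of 0.1, and 4 and 5 where an unadjusted p under 0.05 and a change over 1 on the log2 scale made the call. Leaving out each library gave 0 to 1 higher and 0 to 2 lower, with fewer samples in each fit. No share over all genes was computed for the mean filter alone, limma-voom, the left-out libraries or the unadjusted rule. Whether the Hox counts of those settings exceed a background was therefore not tested. The median log2 fold change of the Hox genes tested, 0.17, was −0.66 with a mean of at least 10, with or without the block, where 18 of the 33 genes stay in the fit, and −0.44 to 0.34 over left-out libraries, so its sign is not settled. Hoxa3 changed sign, where left-out libraries gave −0.44 to 0.62 and it was below 0 without Col6a1− replicate 2 or Col6a1+ replicate 1, and among genes with means under 10 so did Hoxa2 (−0.69 to 0.10), Hoxb6 (−0.27 to 1.77) and Hoxb7 (−0.11 to 1.30).

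For the lists around Hox function and the sums, alternatives were chosen after seeing the data. The list genes called higher and lower, 3 and 2, were 1 and 1 with at least 10 in every library, where Evx1, Prrx1 and Meox2 leave the fit, 3 and 4 with limma-voom, 0 and 0 with the block, 2 and 1 with a pseudocount of 0.1, and 0 to 2 and 0 to 2 over left-out libraries (0 and 0 without Col6a1− replicate 1). The log2 ratio of mean sums was 1.55 to 1.96 for genes 1 to 3, −0.95 to −0.72 for genes 9 to 13 and −0.77 to 0.44 for genes 4 to 8 over left-out libraries. The cause of these shifts was not tested. Low counts limit the 15 tested Hox genes with means under 10, none of which was called in the reported fit, and of these Hoxd9 passed with limma-voom (adjusted p 0.0251).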

Other observations

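Other genes inside the Hox clusters were counted too: 46 lie between the outermost Hox genes, 29 had a count, and none was called in either direction by limma, their median log2 fold change being −0.14. The most abundant was the processed pseudogene Gm11539, between Hoxb13 and Hoxb9, with 495, 270 and 318 normalized counts in Col6a1+ and 342, 549 and 302 in Col6a1− CAFs. It did not follow either neighbor, with a log2 fold change of −0.14 ± 0.35 (SE). Hoxa11os followed, with 0.02 ± 0.32, and Gm27543, a short RNA within its span, had 109, 211 and 149 against 137, 148 and 162. Gm27543 stood in close to the same proportion to Hoxa11os in every library, and Gm27868 and Gm27477 had identical counts in every library. The genes counted here are thus not all separate measurements. Among genes named after their values were seen, Hoxb3os had a log2 fold change of 3.57 ± 1.02 and an adjusted p of 0.0835 by limma, or 0.0448 with the block and a mean of at least 10, the lowest of alternatives that reached 0.235. Gm28309 had −3.13 ± 0.99 (adjusted p 0.117, limma).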
